A study of Mus musculus with 18 samples.

Results

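Activation-induced cytidine deaminase (AID) was compared with its catalytically inactive form, AID-E58Q, in cells in which the uracil-DNA glycosylase UNG was inhibited by the protein Ugi. The comparison uses 6 of the 18 libraries of the series, 3 labelled Ugi AID and 3 labelled Ugi AID-E58Q, and they were chosen by their labels, not by a measured value. The cells were NIH-3T3, a mouse fibroblast line that is not of the B cell lineage. Cells of both groups carried retroviral vectors for the reporter mOrangeSTOP and for Ugi, and differed in the remaining vector, for AID-ER or for AID-E58Q-ER. ER marks a fusion to an estrogen receptor domain, and all cells were kept for 11 days in 1 µM of its ligand OHT (4-hydroxytamoxifen). The other 12 libraries had an empty vector (Control) or a vector for UNG in place of that for Ugi. Their values are given only for G294T and where the effect of AID with Ugi is set against its effect there. They also enter the coverage limit and the estimate of spread behind the edgeR p-values at single positions.

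The reporter was amplified from genomic DNA of the transduced population, so each library samples many cells. It is not stated whether each of the 3 experiments began with its own transduction. The p-values therefore cover the variation among these libraries, part of which can be technical. The amount of AID or Ugi in the cells, and how far UNG was inhibited, are not given in the files used here. The reporter is a transgene, so position 1 is the first base of its coding sequence, and no coordinates in the mouse genome apply. Of the 679 positions measured from position 45 on, 674 had at least 1000 quality-filtered base calls in all 18 libraries and were kept. Just inside that limit, positions 699 and 705 had at least 1046 and 1029 calls in every library. Just outside it, positions 700 to 704 had a lowest count of 702 to 909 calls and were left out. The kept positions comprise 426 C:G base pairs, 221 with C and 205 with G in the coding strand, and 248 A:T base pairs.

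AID removes the amino group of cytosine in single-stranded DNA and so turns it into uracil. In cells with active UNG the uracil is cut out and the site is repaired or copied as a missing base, whereas a uracil that stays pairs with adenine when the strand is copied. An unrepaired deamination is then read as C>T where the cytosine was in the coding strand, and as G>A where it was in the other strand. Both are transitions, exchanges within the purines or within the pyrimidines. The other substitutions, transversions, and changes at A:T pairs are known from antibody genes of B cells, where repair of the uracil is error-prone.

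AID is known to prefer cytosines that follow a purine which itself follows A or T. The C:G positions were therefore sorted into classes by the bases around the cytosine, read on the strand that holds it. WRC covers AAC, AGC, TAC and TGC, and its 66 positions were divided into AGCT (13), the other sites with C or T after the cytosine (other WRCY, 23) and those with A or G after it (WRCR, 30). SRC has C or G before the purine (124 positions), WYC has A or T before a pyrimidine (96), and SYC, the known coldspot of AID, has C or G before a pyrimidine (139). In the plots these classes are called palindromic hotspot (AGCT), other hotspot (other WRCY), hotspot core with a purine after it (WRCR), intermediate with a purine (SRC) or pyrimidine (WYC) before, and coldspot (SYC). Position 45, the first of the table, has no full context. Windows of the coding strand around sites of each class are shown because the results turn on these neighbouring bases, with the 4 bases that set the class in capitals. Where the counted base is a G, the class is that of the complementary strand.
Position 151, AGCT, the highest transition level of the reporter: gaccgctaAGCTgaaggtgac
Codon 77, AGCT, the last base of the in-frame stop codon: ccaaggcctAGCTgaagcacc
Position 399, other WRCY: gcggcaccAACTtcccctccg
Position 534, WRCR: gcggccacTACAcctccgagg
Position 641, SRC: gaggactaCACCatcgtggaa
Position 618, WYC: agttggacATCAcctcccaca
Position 347, SYC: acccaggaCTCCtccctgcag

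Averaged over positions, AID left transitions at C:G pairs and little else in these libraries. Each value below is the number of calls per 10000 at a position, or its mean over the positions of a class. At C:G pairs transitions averaged 11.6, 9.49 and 46.9 per 10000 in the Ugi AID libraries of experiments 1, 2 and 3, against 2.24, 2.31 and 3.66 in the Ugi AID-E58Q libraries. All 3 AID libraries were above all 3 AID-E58Q libraries, and the AID library of experiment 3 was far above the others. The ratio of AID to AID-E58Q was 5.19, 4.11 and 12.8 in the 3 experiments. Transversions at C:G pairs averaged 2.79, 2.30 and 2.01 in Ugi AID, against 2.63, 2.47 and 1.79 in Ugi AID-E58Q, and the groups overlapped. The Ugi AID-E58Q means of experiments 1 and 2 include the exchange G294T described below, a single position that was high only in those libraries. Substitutions at A:T pairs averaged 3.22, 2.45 and 8.36 in Ugi AID, against 3.35, 2.55 and 8.27 in Ugi AID-E58Q, so that experiment 3 was high in both groups and the ratios were 0.959, 0.961 and 1.01. With 3 libraries in each group an exact two-sided permutation test cannot give a p below 0.1, which is the value it gave for C:G transitions, against exact p = 0.9 for C:G transversions and exact p = 0.8 for A:T substitutions.

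Of the 12 single substitutions, C>T and G>A carried the difference. C>T stood at 10.9, 8.57 and 42.6 per 10000 cytosine calls in Ugi AID, against 1.98, 1.98 and 2.92 in Ugi AID-E58Q. G>A stood at 12.3, 10.5 and 51.6 per 10000 guanine calls in Ugi AID, against 2.51, 2.66 and 4.45 in Ugi AID-E58Q. For both, the groups did not overlap (exact permutation p = 0.1, 0.6 after Benjamini-Hochberg adjustment over the 12 substitutions). The ratio of AID to AID-E58Q in the other 10 lay between 0.688 (G>T, experiment 2) and 1.495 (C>A, experiment 2). The G>T means of Ugi AID-E58Q in experiments 1 and 2 include 1 position, G294T, at 93.5 and 108 per 10000 (described below). The G>T ratios without that position are not given here. A>C and T>G were high in experiment 3 in both groups, at 4.47 per 10000 in Ugi AID and 4.33 in Ugi AID-E58Q for A>C, and at 7.64 and 7.63 for T>G. They were at most 1.10 in the other 4 libraries.

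**Figure D1:**
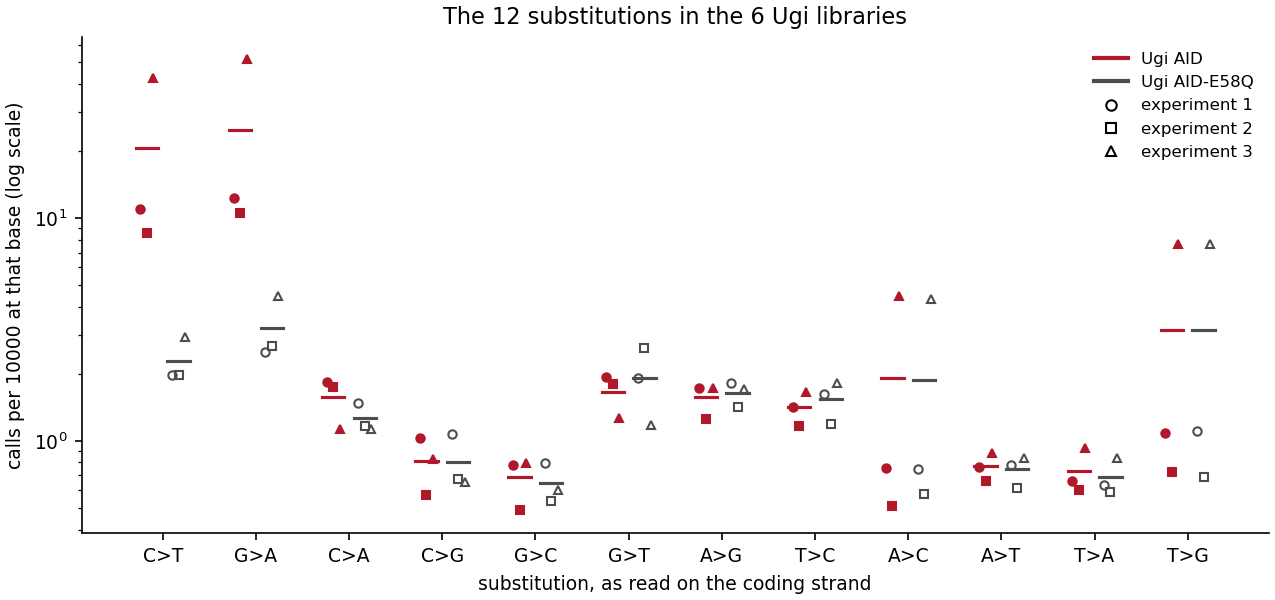
Mean frequency of each of the 12 substitutions over the positions that hold its base (calls per 10000, log scale) in the 3 Ugi AID libraries (filled, left of each pair) and the 3 Ugi AID-E58Q libraries (open, right). Symbols give the experiment and bars the mean of 3; C>T and G>A are the 2 substitutions in which all AID libraries lie above all AID-E58Q libraries by more than 2-fold.

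At single positions the test was edgeR's quasi-likelihood test, with an adjusted p under 0.05 over all positions as the limit. The spread was estimated from all 18 libraries. Transitions rose with AID at 149 of 674 positions (22.1%) and fell at 0 (0%), among 204 positions with an unadjusted p under 0.05. All 149 were C:G pairs. By DESeq2 transitions rose at 164 positions and fell at 2, by limma at 108 and 1, and by edgeR with TMM factors at 112 and 14. With the replicate block, in which libraries of 1 experiment are compared with each other, they rose at 208 positions (30.9%) and fell at 2 (0.297%). With only the Ugi AID and Ugi AID-E58Q libraries fitted, the count of calls was 70. Without AID-E58Q of experiment 1 the count of calls was 99, without AID-E58Q of experiment 2 it was 96, and without AID of experiment 3 it was 83. Without experiment 1 in all groups it was 0, with 164 at an unadjusted p under 0.05, and 191 rose when the block was added. The 3 AID libraries all lay above the 3 AID-E58Q libraries at 150 positions (22.3%), 147 of them C:G, and all below at 11 (1.63%), every one of which was A:T. Transversions rose at 0 and fell at 0 of 674 positions by edgeR, with 4 at an unadjusted p under 0.05, and DESeq2 called 1 fall, at the position of G294T described below. The 3 AID libraries were all above in transversions at 18 positions (2.67%) and all below at 6 (0.89%).

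Of 2022 pairs of a position and a substitution tested singly, 95 rose (4.7%), 56 C>T and 39 G>A, and 1 fell (0.0495%), the exchange G294T. With only the Ugi AID and Ugi AID-E58Q libraries fitted, 0 pairs were called. With the replicate block 175 rose, and without 1 library the calls ranged from 18 (AID-E58Q of experiment 1 left out) to 121. The 175 comprised 92 C>T, 75 G>A, 3 C>A, 2 C>G, 1 G>C, 1 G>T and 1 A>T. G294T, a G-to-T exchange counted from the first coding base, was read in 1.08, 1.19 and 1.18 per 10000 calls in Ugi AID, against 93.5, 108 and 1.38 in Ugi AID-E58Q. Only the AID-E58Q libraries of experiments 1 and 2 were high, with 95% Wilson intervals of 85.9 to 102 and 99.4 to 117 for counting error alone. The other 12 libraries of the series had 0.403 to 4.52.

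**Figure D2:**
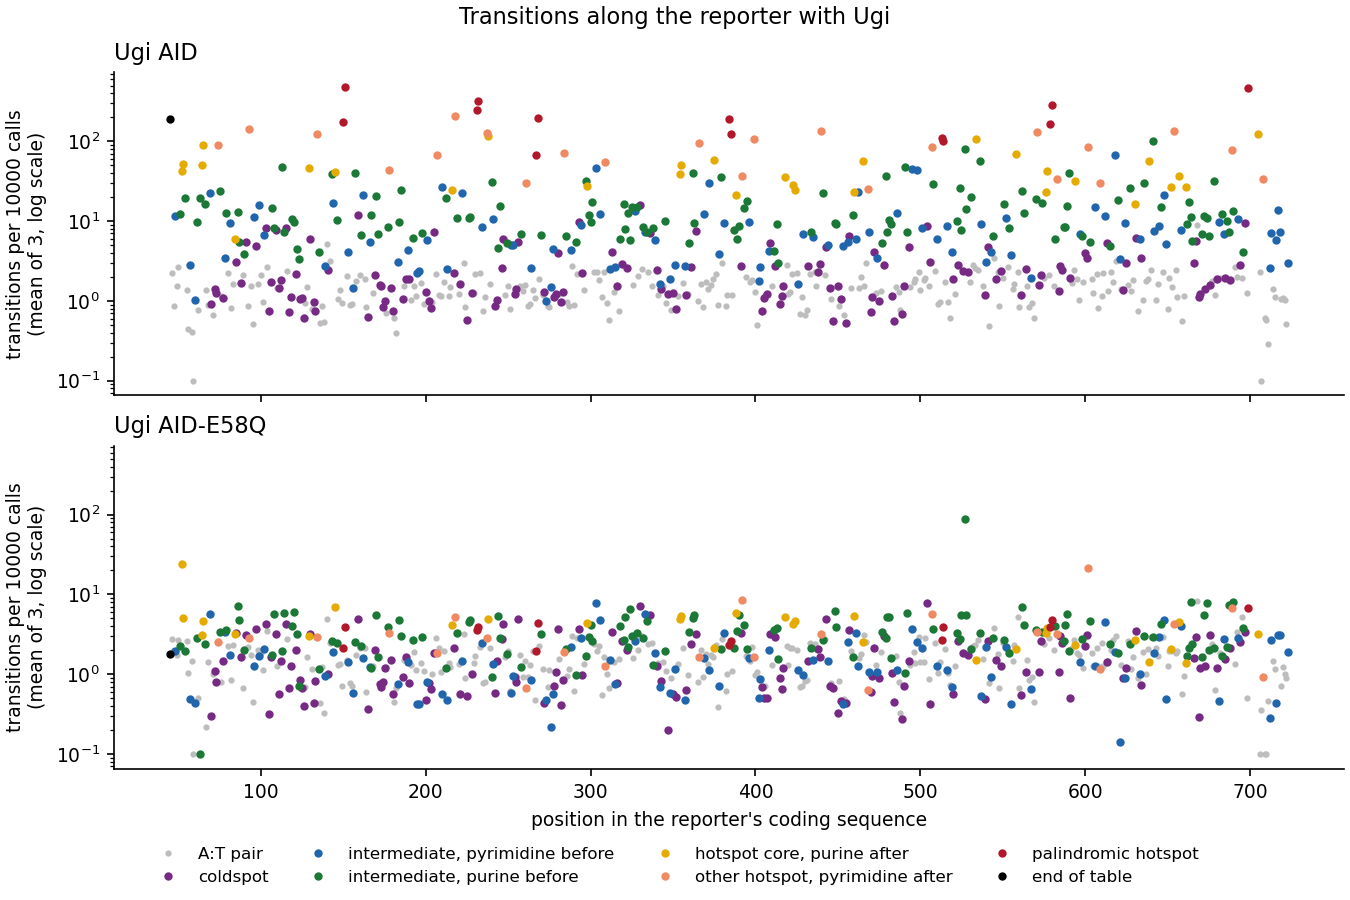
Transitions per 10000 calls (mean of 3 libraries, log scale) at each kept position of the reporter's coding sequence, in Ugi AID above and Ugi AID-E58Q below, coloured by site class. The palindromic hotspot is AGCT, and means under 0.1 (2 positions in AID and 5 in AID-E58Q) are drawn at 0.1; the hotspot classes stand out from the coldspot in the upper panel and lie among the other positions in the lower one.

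Transitions were highest at AGCT and lowest at the coldspot. At the 13 AGCT positions they averaged 120, 87.8 and 469 per 10000 in Ugi AID, against 2.66, 3.54 and 4.58 in Ugi AID-E58Q. At the 23 other WRCY positions they averaged 36.4, 34.3 and 187 in Ugi AID, against 3.24, 2.85 and 5.36 in Ugi AID-E58Q. At the 30 WRCR positions they averaged 22.9, 17.3 and 99.4 in Ugi AID, against 3.56, 3.88 and 5.81 in Ugi AID-E58Q. In each of these 3 classes every AID library was above every AID-E58Q library (exact permutation p = 0.1, 0.12 adjusted over the 6 classes). The positions called higher were 13 of 13, 23 of 23 and 24 of 30, against 22.1% of all 674 positions. The median log2 fold changes were 5.87, 5.19 and 3.22, against 0.68 over all positions tested.

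Outside WRC the levels were lower but 2 classes still rose in part. SRC positions averaged 8.65, 7.62 and 29.5 per 10000 in Ugi AID, against 3.66, 3.74 and 4.70 in Ugi AID-E58Q. There 47 of 124 positions were called higher (37.9%), with a median log2 fold change of 1.74. WYC positions averaged 4.89, 3.75 and 19.5 in Ugi AID, against 1.25, 1.13 and 2.68 in Ugi AID-E58Q. There 38 of 96 were called higher (39.6%), with a median of 2.16. In both classes the groups did not overlap (exact permutation p = 0.1, 0.12 adjusted). Over all 426 C:G positions 35.0% were called higher, so both shares lie near that background. The SYC coldspot averaged 1.61, 1.37 and 4.97 in Ugi AID, against 1.16, 1.32 and 2.58 in Ugi AID-E58Q, and there the groups overlapped (exact permutation p = 0.5). It had 3 of 139 positions called higher (2.16%) and a median log2 fold change of 0.57. That median was -0.36 with TMM factors, a scaling that lowered the median of all positions to -0.15. It was -0.25 without the AID library of experiment 3. A:T positions had 0 of 248 called, 2 at an unadjusted p under 0.05, and a median log2 fold change of -0.06.

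**Figure D3:**
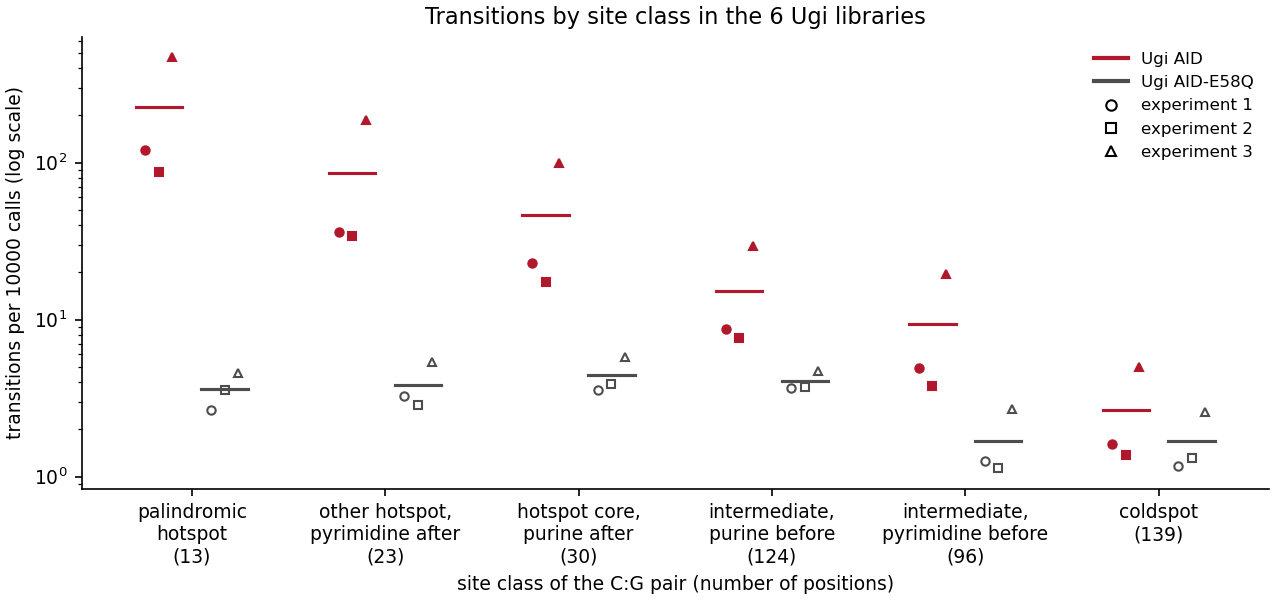
Mean transitions per 10000 calls (log scale) by site class in the 3 Ugi AID libraries (filled, left) and the 3 Ugi AID-E58Q libraries (open, right), with bars for the means. From left to right the classes are AGCT, other WRCY, WRCR, SRC, WYC and SYC; the AID means descend from 226 to 2.65 while the AID-E58Q means stay between 1.68 and 4.42.

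The order of the classes was tested as the log2 ratio of one class to another in each library. This cancels a factor common to all positions of that library. The background was not subtracted first, and a constant background does not cancel. WRC over all other C:G positions had a ratio of 9.51, 8.90 and 11.7 in Ugi AID, against 1.60, 1.64 and 1.62 in Ugi AID-E58Q. The difference in the log2 ratio was 2.62 (SE 0.12, n = 3 each, exact permutation p = 0.1, the smallest possible). AGCT over other WRCY differed by 1.53 (SE 0.23), other WRCY over WRCR by 1.09 (SE 0.14), WRCR over SRC by 1.34 (SE 0.20) and WYC over SYC by 1.698 (SE 0.19). For each of these the 3 AID libraries were above the 3 AID-E58Q libraries and the exact permutation p was again 0.1. SRC over WYC differed by -0.55 (SE 0.31, exact permutation p = 0.3), and its groups overlapped. SYC over A:T transitions differed by 0.59 (SE 0.59, exact permutation p = 0.4). Summing the calls of a class in place of averaging its positions gave 1.90 for other WRCY over WRCR and 0.58 for WRCR over SRC. Such sums give most weight to positions 45 to 59, which are covered most deeply.

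Single neighbouring bases showed where these class differences lay, with levels that are not independent of the classes. With A before the purine or pyrimidine that precedes the cytosine, the ratio of AID to AID-E58Q was 17.97, 14.95 and 41.9 in the 3 experiments. With G there, the log2 ratio to the other bases was -1.77, -1.497 and -2.36 in Ugi AID, against 0.70, 0.89 and 0.34 in Ugi AID-E58Q. The positions with G there include a GGC site that was high without active AID, described below. It raises the AID-E58Q ratios, and the ratios without it are not given here. With T directly after the cytosine, AID exceeded AID-E58Q 19.2, 15.2 and 42.3 times, and with G directly after it 2.17, 1.63 and 4.07 times. The log2 difference between AID and AID-E58Q, each base over the other bases, was 2.66 for A and -2.52 for G in the earlier place, and 2.51 for T and -1.81 for G after the cytosine (exact permutation p = 0.1 each). With medians over positions in place of means these were 2.12, -1.39, 0.36 and -0.89, and the T contrast no longer separated the groups (exact permutation p = 0.4). AGC was the trinucleotide with the most called positions, 24 of 25, at 79.8, 64.8 and 340 per 10000 in Ugi AID, against 3.03, 3.49 and 5.25 in Ugi AID-E58Q. All 15 TAC positions were called, and 0 of 22 GTC positions were, against 35.0% of all 426 C:G positions.

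The following finer splits were chosen after their values were seen and carry no test. Within SRC, 37 of 55 positions with C before the purine (CAC and CGC) were called (67.3%) and 10 of 69 with G there (GAC and GGC, 14.5%). Over all 426 C:G positions the share called was 35.0%. The CAC and CGC positions averaged 10.4, 7.96 and 41.8 per 10000 in Ugi AID, against 2.14, 1.88 and 3.22 in Ugi AID-E58Q. The GAC and GGC positions averaged 7.23, 7.34 and 19.7 in Ugi AID, against 4.88, 5.21 and 5.87 in Ugi AID-E58Q. Both of these group levels include a GGC site that was high without active AID, described below. The AID-E58Q level of GAC and GGC is therefore in part that of a single site. Levels without that site are not given here. Within WYC, 21 of 37 positions with A before the pyrimidine (56.8%) and 17 of 59 with T there (28.8%) were called. Within WRC, every site followed by T (23), C (13) or A (15) was called, and 9 of 15 followed by G.

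Position 151, the cytosine of the first AGCT in the measured stretch and the first base of a CTG codon, had the highest transition level. It stood at 295, 197 and 952 per 10000 in Ugi AID, against 3.45, 2.50 and 5.78 in Ugi AID-E58Q (edgeR, log2 fold change 6.93 ± 1.02 SE, adjusted p = 2.03e-04). The groups were far apart, and the AID library of experiment 3 was more than 3 times as high as the others. C>G at position 151 stood at 4.91, 5.20 and 6.09 in Ugi AID, against 1.65, 1.03 and 1.58 in Ugi AID-E58Q. Its adjusted p was 0.139, and 0.00423 with the replicate block (edgeR). C>A there did not rise (log2 fold change -0.31). The G next to it, position 150, stood at 42.7, 45.04 and 438 in Ugi AID, against 1.75, 1.16 and 3.49 in Ugi AID-E58Q (edgeR, log2 fold change 6.33 ± 1.23, adjusted p = 0.00121). G>C at position 150 stood at 0.728, 2.42 and 8.39 in Ugi AID, against 0.583, 0.289 and 0.982 in Ugi AID-E58Q, with overlapping groups. Its adjusted p was 0.146, and 0.0195 with the replicate block (edgeR). G>T there did not rise (log2 fold change -0.04). Position 699, the G of the last AGCT, stood at 230.5, 206 and 965 in Ugi AID, against 0, 12.6 and 7.46 in Ugi AID-E58Q. Its lowest coverage in the Ugi libraries was 1496 calls, against 66751 at position 151, so the background at position 699 is the less certain.

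AGCT reads the same on both strands, so its G and C report deamination of the 2 strands at one place. In 6 AGCT sites both bases were measured, and the levels of the 2 bases differed within a site. The C was the higher base in all 3 AID libraries at 150 and 151, at the stop codon base and 232, and at 267 and 268 and 579 and 580. At 267 and 268 the C over G ratio was 5.54, 5.72 and 2.34 in experiments 1, 2 and 3, and at the stop codon base and 232 it was 1.15, 1.23 and 1.39. At 384 and 385 the ratio was 1.01, 1.74 and 0.503, and at 513 and 514 it was 1.32, 1.38 and 0.765, so that the G was the higher base in experiment 3. These ratios were examined after the levels were seen and carry no test. Among AGCT positions, the fold change was smallest at position 514, where transitions stood at 72.3, 46.6 and 182 per 10000 in Ugi AID, against 4.26, 2.94 and 4.45 in Ugi AID-E58Q (log2 fold change 4.68).

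Outside AGCT, AAC and TAC sites were among the positions with the largest changes. Position 399, an AACT, stood at 32.4, 25.5 and 260 per 10000 in Ugi AID, against 1.66, 0.869 and 2.45 in Ugi AID-E58Q (edgeR, log2 fold change 5.95 ± 1.15, adjusted p = 0.00121). Positions 93 and 366 are AACT on the other strand, and their log2 fold changes were 5.57 and 5.81. Position 534, a TACA and hence without the pyrimidine of the WRCY motif, stood at 53.1, 31.7 and 235 in Ugi AID, against 0.979, 1.48 and 2.06 in Ugi AID-E58Q (edgeR, log2 fold change 6.08 ± 0.88, adjusted p = 2.03e-04). Position 639, another TACA, stood at 35.7, 21.3 and 115 in Ugi AID, against 0, 1.23 and 2.99 in Ugi AID-E58Q. At each of these positions all AID libraries were above all AID-E58Q libraries.

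Some positions outside WRC reached levels of the hotspots. Position 641, a CACC site of SRC, stood at 43.5, 44.3 and 212 per 10000 in Ugi AID, against 3.44, 2.14 and 3.14 in Ugi AID-E58Q (edgeR, log2 fold change 5.09 ± 0.79, adjusted p = 2.95e-04). Position 618, an ATCA site of WYC, stood at 56.6, 27.0 and 119 in Ugi AID, against 2.61, 1.10 and 1.97 in Ugi AID-E58Q (edgeR, log2 fold change 5.15 ± 0.89, adjusted p = 6.44e-04). At position 63, a CGCA site of SRC, the 3 AID-E58Q libraries had 0 transitions. Ugi AID stood there at 5.13, 17.2 and 36.7 per 10000, which is at least 11.9-fold higher when 3 calls over the whole AID-E58Q group are taken as the limit. The coverage at position 63 was as low as 1665 calls. Position 45 stood at 90.0, 100 and 383 in Ugi AID, against 1.20, 0.948 and 3.31 in Ugi AID-E58Q, and has no class. It is an AAC on the other strand and so WRC by those bases, but the base after that cytosine is not in the table.

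The 3 called coldspot positions were 205, 347 and 506. Position 347 stood at 0.996, 0.822 and 1.88 per 10000 in Ugi AID, against 0.217, 0.206 and 0.177 in Ugi AID-E58Q (edgeR, log2 fold change 2.59 ± 0.61, adjusted p = 0.00398), a low level with groups that did not overlap. Those AID-E58Q values are below the level of 3 calls at the median coverage of each library, 0.696, 0.659 and 0.277. The background at position 347 thus rests on few calls. Position 205 stood at 1.16, 9.16 and 11.9 in Ugi AID, against 1.49, 2.14 and 1.89 in Ugi AID-E58Q. Position 506 stood at 1.37, 0.256 and 7.69 in Ugi AID, against 0.271, 0.769 and 0.222 in Ugi AID-E58Q. At both of these the groups overlapped.

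A few C:G positions had a high level without active AID. Position 527, a GGC site of SRC, had 91.7, 100 and 51.9 transitions per 10000 in Ugi AID, against 112, 114 and 36.8 in Ugi AID-E58Q, with overlapping groups (log2 fold change -0.11, adjusted p = 0.980, edgeR). Position 52, a WRCR site, had 21.8, 16.4 and 90.2 in Ugi AID, against 24.7, 20.6 and 28.0 in Ugi AID-E58Q (log2 fold change 0.81, adjusted p = 0.521, edgeR). Position 602, an other WRCY site, had 63.0, 29.3 and 163 in Ugi AID, against 25.9, 15.8 and 22.5 in Ugi AID-E58Q (log2 fold change 1.99, adjusted p = 0.0275, edgeR). Positions 527 and 52 were not called.

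Summed over all C:G positions, the excess of transitions was nearly the same for C and G in the coding strand. C in the coding strand, 51.9% of the C:G positions, held 48.3% ± 1.15 of the C:G transition excess, the mean over experiments of AID minus AID-E58Q summed over positions, and G held 51.7% ± 1.15 (SD, n = 3 experiments). The ratio of the C>T mean to the G>A mean was 0.887, 0.817 and 0.826 in Ugi AID, against 0.787, 0.745 and 0.657 in Ugi AID-E58Q. The groups did not overlap, with a difference in the log2 ratio of 0.21 (SE 0.09, exact permutation p = 0.1). Without position 527 the difference was 0.006, and with summed calls it was 0.01. Within single classes the C and G levels were less even. The C over G ratio in other WRCY was 0.440, 0.398 and 0.712 in Ugi AID, against 0.427, 0.460 and 0.433 in Ugi AID-E58Q. In SYC it was 0.474, 0.618 and 0.390 in Ugi AID, against 0.654, 0.698 and 0.339 in Ugi AID-E58Q. In AGCT it was 1.60, 1.42 and 1.13 in Ugi AID, against 1.57, 0.963 and 1.15 in Ugi AID-E58Q. In AGCT the C and G positions are the 2 strands of 6 sites, apart from position 699, a G whose C was not kept. In the other classes the C and G positions need not lie at the same site. The groups overlapped in each of these 3 classes. Over the 6 classes the AID minus AID-E58Q difference of this log2 ratio ranged from -0.14 (SYC, SE 0.38) to 0.45 (WYC, SE 0.50), with exact permutation p of 0.3 to 0.8.

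The excess was concentrated in few positions. AGCT, 3.05% of the C:G positions, held 35.6% ± 2.78 of it, other WRCY 21.8% ± 2.39 and WRCR 14.3% ± 1.06 (SD, n = 3 experiments). SRC held 16.0% ± 0.637, WYC 8.59% ± 0.312 and SYC, 32.6% of the positions, 1.20% ± 0.841. In experiments 1, 2 and 3, 19, 17 and 24 positions held 50% of the excess of their own experiment. The 10 positions with the largest excess in experiment 1 held 37.8% of the excess in experiment 2 and 29.1% in experiment 3, for which they had not been chosen. Of the 10, 9 were in the WRC classes, a count that cannot include position 45, an AAC without a class.

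The level of transitions differed between experiments. The mean excess at C:G pairs was 9.37, 7.18 and 43.3 per 10000 in experiments 1, 2 and 3, so that experiment 3 exceeded experiment 1 by 4.62 times. By class this ratio lay between 3.95 (AGCT) and 5.49 (other WRCY). Transitions in Ugi AID were higher in experiment 3 than in experiment 1 at 416 of 426 C:G positions, and higher in experiment 2 than in experiment 1 at 154. The excess per position correlated between pairs of experiments with Pearson's r of 0.936 to 0.943 and Spearman's rho of 0.605 to 0.720 over the 426 positions, given as a description because positions share libraries and sequence. Experiment 3 also had higher C>T and G>A in Ugi AID-E58Q than the other experiments.

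**Figure D4:**
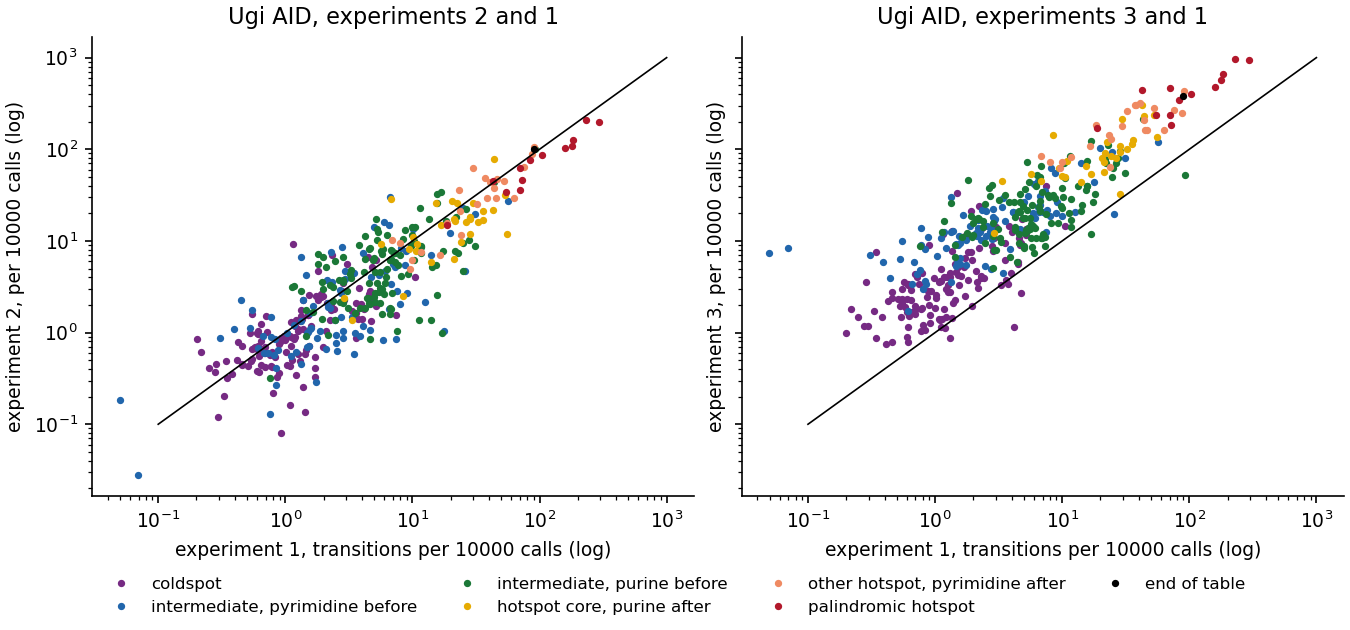
Transitions per 10000 calls at each C:G position in the Ugi AID libraries of experiment 2 (left panel) and experiment 3 (right panel), on the vertical axis, against experiment 1 on the horizontal axis (all log scales), coloured by site class. The line marks equal levels, and positions at 0 in either library (8 in the left panel, 6 in the right) are not drawn; 416 of the 426 positions are higher in experiment 3 than in experiment 1.

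Along the reporter, called positions occurred in all parts. In 6 consecutive stretches of nearly equal length, each held 21 to 31 of the 149 called C:G positions. These are counts, not shares of the C:G positions in a stretch. The ratio of AID to AID-E58Q over WRC positions was 8.96, 7.05 and 29.1 in experiments 1 to 3 in the stretch from 384 to 496, and stood at 23.1, 21.0 and 61.3 in that from 158 to 270. By the protein code, 83 of 212 positions whose transition is silent were called (39.2%), 57 of 193 whose transition changes an amino acid (29.5%) and 5 of 13 whose transition makes a stop codon (38.5%), against 35.0% of all 426 C:G positions. The shares lie near that background. The 5 are 205, 355, 424, 577 and 652, each in a CAG turned into TAG. The silent positions include 37 WRC sites and the amino acid positions 24.

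mOrangeSTOP carries an in-frame TAG as codon 77, so that a cell can make the full orange fluorescent protein only once that codon is changed to a sense codon. Its last base is the G of an AGCT. G>A there stood at 159, 102 and 473 per 10000 in Ugi AID, against 2.85, 3.31 and 4.51 in Ugi AID-E58Q (edgeR log2 fold change 6.09 ± 0.89, adjusted p = 9.78e-04 over the 2022 single substitutions). This transition turns TAG into TAA, which is also a stop codon. The 2 transversions at that base, which make a sense codon, did not separate the groups. G>C stood at 2.47, 0.880 and 2.96 in Ugi AID, against 1.71, 0.737 and 1.55 in Ugi AID-E58Q. G>T stood at 4.22, 5.01 and 1.80 in Ugi AID, against 3.04, 1.66 and 1.90 in Ugi AID-E58Q (adjusted p = 1.0 for each, edgeR). The first and second base of that codon, an A:T pair each, had 0.854 to 2.63 transitions per 10000 in Ugi AID, against 1.10 to 1.97 in Ugi AID-E58Q.

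The effect of AID with Ugi was set against its effect in the Control and UNG arms, each with its own AID-E58Q libraries. The UNG AID library of experiment 1 stood apart in transversions at the SYC coldspot too, where UNG AID had 6.32, 1.53 and 1.77 per 10000, against 2.09, 1.37 and 2.33 in UNG AID-E58Q. Its part in the results below was not tested beyond the values without it. At AGCT, transversions averaged 4.84, 3.96 and 5.42 per 10000 in Ugi AID, against 43.1, 22.7 and 74.9 in Control AID and 62.6, 38.0 and 132 in UNG AID. The ratio of AID to AID-E58Q in AGCT transversions was 1.52, 0.757 and 1.93 with Ugi, against 10.7, 8.93 and 24.4 in Control and 20.8, 16.7 and 38.1 with UNG. In AGCT transitions it was 45.1, 24.8 and 102 with Ugi, against 26.2, 17.5 and 26.7 in Control and 7.77, 9.82 and 14.3 with UNG. The difference of the log2 folds between Ugi and UNG was 2.24 for AGCT transitions and -4.18 for AGCT transversions (exact permutation p = 0.1 each). Between Ugi and Control it was 1.07 for transitions, where the values overlapped (exact permutation p = 0.3) although the Ugi ratio was the higher in 3 of 3 experiments (exact permutation within experiments p = 0.25, the smallest possible), and -3.35 for transversions (exact permutation p = 0.1).

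Transitions made up nearly the whole excess at WRC positions with Ugi. Their share was 99.0%, 102% and 99.6% in the 3 experiments with Ugi, against 65.8%, 64.4% and 63.7% in Control and 32.6%, 38.6% and 37.5% with UNG. A share passes 100% where transversions were lower with AID than with AID-E58Q. The 3 Ugi values lay above all 6 others. At single positions, the transition effect with Ugi exceeded that with UNG at 6 of 674 positions (0.89%), 261, 347, 375, 534, 618 and 641, of which none is AGCT. The transversion effect with Ugi was below that with UNG at 8 positions (1.19%), 150, 151, 237, 268, 384, 579, the last base of the stop codon and the G294T position, of which 6 are AGCT, and below that in Control at 1 position (0.148%), 151. These calls rest on few libraries: leaving out 1 library gave 0 to 25, 0 to 12 and 0 to 2 calls, and fitting only the groups compared gave 0, 3 and 0. Against Control, 0 positions differed in transitions by edgeR and 0 by DESeq2, with 50 and 54 at an unadjusted p under 0.05. With the replicate block the counts were 55 and 20 positions against UNG and 0 and 16 against Control, for transitions and transversions in that order.

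**Figure D5:**
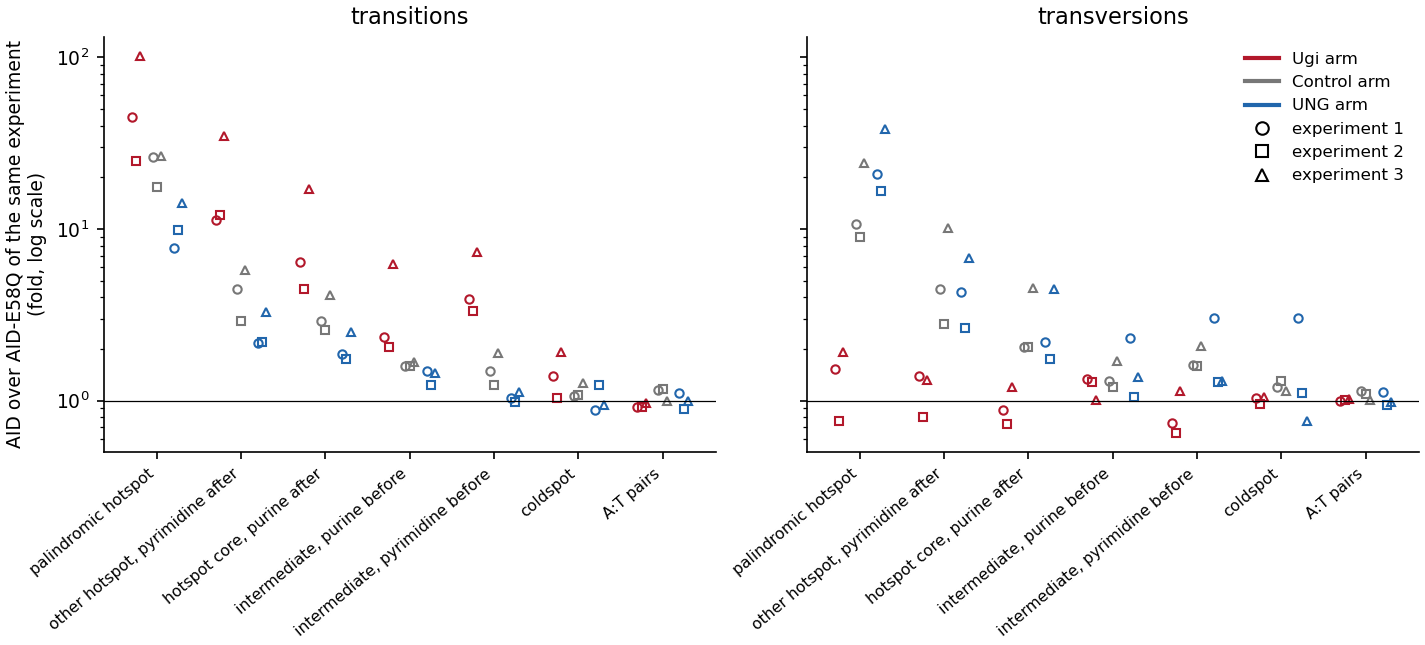
Fold of AID over AID-E58Q of the same experiment (log scale) for transitions (left) and transversions (right) by site class and at A:T pairs, with the Ugi arm left of Control and UNG in each class and symbols for the experiment. With Ugi the transition folds are the highest at AGCT, 24.8 to 102, and the transversion folds lie near the line at 1, from 0.649 to 1.93 over the classes. The fold of 0.649, WYC in experiment 2, includes the G294T position, which was high in that AID-E58Q library. In the UNG arm AGCT transversions reach 16.7 to 38.1.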

How the data were processed

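The reporter was amplified by PCR from genomic DNA, sheared and sequenced as 1 library per sample, per the labels' protocols. Per the file headers, the authors deposited, per position and library, counts of calls above Phred quality 20 and counts of the 12 substitutions. SAMtools 0.1.11, Novoalign 2.07.04 and CASAVA 1.7 were used, per the submitters' processing notes, but how each was set is not given. The 6 Ugi libraries held 28577254 to 86166394 calls, with medians of 43133 to 117454 per position. A count of 0 there allows 0.255 to 0.696 per 10000, taking 3 calls as the limit. Reads at positions 45 to 59 reach at most 499939 in any of these libraries, and 233776 elsewhere. PCR products carried no molecular identifiers, so limits and intervals cover counting error only.

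Frequencies are counts over quality-filtered calls. edgeR 4.0.16 (R 4.3.3) was fitted to all 18 libraries as 6 group means, with log coverage as the offset and Benjamini-Hochberg adjustment over 674 positions, or 2022 rows for single substitutions. Single values were compared with exact two-sided permutation tests. On simulated data for Ugi transitions, 92 of 100 positions changed 4-fold and 100 of 100 changed 16-fold were called, and 9 of 474 unchanged ones. The simulated counts had a fixed spread and no difference between experiments, unlike these libraries, so those rates do not carry over to them. Alternatives were DESeq2 1.42.0, limma 3.58.1 (pseudocount 0.5), TMM factors, only the compared groups, other coverage limits and left-out libraries. The experiment numbers were taken as pairing the libraries, by a rule that deviations of each same-numbered AID and AID-E58Q pair correlate above 0.1 (0.168, 0.170 and 0.503 in transitions). Differently numbered pairs correlated at -0.368 to 0.244 there, so that only experiment 3 correlated best with its own number. In transversions each did (0.516, 0.513 and 0.834). The positions to name were the 15 largest transition changes, the extremes of each class, the called coldspots, the stop codon, the smallest p-values at A:T pairs and in transversions, and the positions where the arms differ. Not all of them are described. Among those left out are 47, 92 and 317 (A:T pairs), 195 and 582 (transversions) and 84 (WRCR). Positions 52 and 514 come from that rule, while 513 and 527 and the finer splits were added after their values were seen. Members, classes and tests were chosen with earlier results of these data known.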

Additional observations from a re-analysis of the deposited data

Results flagged for a closer look

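The effect of AID on transitions was larger with Ugi than with UNG at 6 positions, by the interaction term of the edgeR fit. The difference of the log2 fold changes was 5.48 at position 261 (SE 1.22), 3.47 at position 347, 5.15 at position 375, 5.59 at position 534, 5.51 at position 618 and 4.94 at position 641. At position 261, a TACT site, transitions stood at 8.06, 9.40 and 73.2 per 10000 in Ugi AID, against 1.05, 1.03 and 1.29 in UNG AID. At position 375, a TACA site, they stood at 36.0, 16.9 and 125 in Ugi AID, against 4.05, 0.514 and 4.05 in UNG AID. At position 347 the Ugi AID-E58Q values, 0.217, 0.206 and 0.177, rest on few calls. In UNG AID all 6 positions lay at or near the level of UNG AID-E58Q, with means of 0.425 to 3.95 in UNG AID, against 0.770 to 3.80 in UNG AID-E58Q.

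The effect of AID on transversions was smaller with Ugi than with UNG at 8 positions. The difference was -4.71 at position 150, -4.85 at 151, -4.54 at the last base of the stop codon, -4.80 at 237, -4.26 at 268, -6.31 at the G294T position, -4.23 at 384 and -4.12 at 579. At position 151 transversions stood at 8.75, 9.27 and 6.77 per 10000 in Ugi AID, against 151, 88.8 and 277 in UNG AID. At position 237, a TGCT site on the other strand, they stood at 2.63, 2.33 and 4.57 in Ugi AID, against 54.2, 35.5 and 125 in UNG AID. At the G294T position transversions stood at 1.59, 1.55 and 1.45 in Ugi AID, against 94.3, 108 and 1.67 in Ugi AID-E58Q, where 2 libraries were high. Against Control, the transversion effect differed at position 151 by -4.49, with 90.1, 56.2 and 143 per 10000 in Control AID. Without 1 library the 6 calls became 0 to 25, the 8 became 0 to 12 and the 1 became 0 to 2. The 6 became 0 without AID-E58Q with Ugi of experiment 1 or 2, AID with UNG of experiment 1 or 2, or AID-E58Q with UNG of experiment 1 or 3. The 8 became 0 without AID with Ugi of experiment 1, AID with UNG of experiment 3 or any AID-E58Q library with UNG. The 1 became 0 without any AID library with Ugi, AID-E58Q with Ugi of experiment 1 or 2, AID with Control of experiment 1 or 3, or any AID-E58Q library with Control. The adjusted p of the 15 differences lay between 0.00963 and 0.0474 (edgeR).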

How the results depend on the processing

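The replicate block raised the count of transitions to 208 higher and 2 lower, and 191 were higher with the block but without experiment 1. Transitions were called at 70 positions when the other groups were left out, 93 without experiment 3 and 0 without experiment 1, and at 83 to 192 without 1 library (83 without AID of experiment 3). All 13 AGCT positions were called under these settings except without experiment 1, where the block restored all 13. TMM factors gave a median log2 fold change of -0.15 over all positions, against 0.68 without them, and of SYC -0.36 (-0.25 without AID of experiment 3), and called 112 higher and 14 lower. Transversions had 1 call with the block, by DESeq2, and without experiment 3, and 0 to 1 without 1 library. Single substitutions had 176 calls with the block, 151 by DESeq2, 0 with only the compared groups, 0 without experiment 1, 25 without experiment 2 and 18 to 121 without 1 library. Transversions against Control had 16 with the block, 6 with the block and without experiment 1, 18 by DESeq2, 0 with only these groups, TMM factors, or without experiment 1 or 2, and 0 to 2 without 1 library. Transitions against UNG had 55, 51 and 12 with the block, DESeq2 and TMM factors, 0 with only these groups or without experiment 1 or 2, and 0 to 25 without 1 library. Transversions against UNG had 20 with the block, 13 with the block and without experiment 1, 18 by DESeq2, 3 with only these groups, 1 without experiment 3, 0 without experiment 1 or 2, and 0 to 12 without 1 library. Medians over positions gave log2 differences of 1.41 for C>T, 1.33 for G>A, 1.40 for C:G transitions, 0.85 for AGCT over other WRCY, 1.46 for other WRCY over WRCR, 1.59 for WRCR over SRC, -0.16 for SRC over WYC, 1.23 for WYC over SYC, 2.78 for WRC over other C:G and 0.080 for the strands. Summed calls gave 1.90 for other WRCY over WRCR, 0.58 for WRCR over SRC, 2.22 for WRC over other C:G and 0.0099 for the strands. Without positions 45 to 59 and that of G294T these 4 were 0.82, 1.62, 2.78 and 0.33. The strand difference was 0.42 at a coverage of at least 5000 and 0.0057 without position 527. The causes were not tested. Of 424 values for these comparisons and settings, 34 changed sign, all in 11 comparisons. These were the 6 substitutions at A:T pairs, the C>G, G>C and G>T substitutions, and the sums of C:G transversions and A:T substitutions. The permutation test of such values cannot give a p below 0.1, so it could call no comparison, changed in sign or not. Without 1 library A>C ran from -0.99 to 0.87 and T>G from -1.02 to 1.06. C>T, G>A, C>A, C:G transitions, the class contrasts and the strand ratio kept their direction. Of the 424, 335 moved by less than the replicate SD or, for counts, by at most 1.5 times. The 335 include the replicate block for the substitution, class and strand values, where it changes only the p and could not move the value. Of the 12 single-base contrasts, which are not among the 424, 11 moved with medians, 5 with summed calls and 4 without position 527. Without positions 45 to 59 and that of G294T 2 moved, and at a coverage of at least 5000 1 moved. The sign changed in 2 contrasts with medians. It changed in 1 without AID of experiment 2, in 1 without AID-E58Q of experiment 3 and in 1 without positions 45 to 59 and that of G294T.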
